A study of Homo sapiens with 4 samples.

Results

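The myeloid granule protein genes are 10 genes, MPO, ELANE, AZU1, PRTN3, CTSG, LYZ, RNASE2, RNASE3, PRG2 and SRGN, found by symbol among the 58037 Ensembl genes of the count table. Each symbol matched a single row. The RNA-Seq was done in OCI-AML3, an established human AML cell line with heterozygous mutations of NPM1 and DNMT3A and a homozygous NRAS mutation, all of which both groups carried before editing. Cells were harvested 3 days (72 hours) after transfection with sgNeg, the control guide (sgRNA Ctrl, 2 libraries), or with sgNPM1A, a guide that directs Cas9 to the mutant NPM1 allele (mtNPM1 KO, 2 libraries). No selection of edited cells is given in the sources used here, so edited and unedited cells may be pooled in each library. The comparison of sgNPM1A with sgNeg asks how mRNA expression changed with mtNPM1 KO.

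Granule proteins are made by myeloid precursors and stored in membrane-bound granules. The azurophil (primary) granules of promyelocytes hold myeloperoxidase and a family of serine proteases, the specific and gelatinase granules form later in neutrophil maturation, and eosinophils fill their granules with basic proteins and ribonucleases. Each wave is known to be set mainly by transcription, with factors such as PU.1, C/EBP proteins, MYB and RUNX1 acting on the granule genes, and the proteins are packed on serglycin, a proteoglycan core protein.

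With mtNPM1 KO, 7 of the 9 granule protein genes that could be tested were higher and 0 were lower. LYZ, which encodes lysozyme, rose 12.4-fold, PRTN3 (proteinase 3) 4.62-fold and MPO (myeloperoxidase) 3.42-fold. SRGN (serglycin), CTSG (cathepsin G), ELANE (neutrophil elastase) and AZU1 (azurocidin) rose by between 1.31-fold and 1.75-fold. RNASE2 and RNASE3, which encode the eosinophil ribonucleases, did not pass the test, and PRG2, the eosinophil major basic protein gene, had 1 count in every library. A gene was called where edgeR's quasi-likelihood test gave a Benjamini-Hochberg adjusted p under 0.05 over all tested genes and the log2 fold change was at least 0.32 in size, the study's fold threshold. By this rule 10.5% of the 15718 tested genes were higher and 10.3% lower.

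Total counts per library were between 25069484 and 28276391, and 3 counts, taken as the floor of detection, correspond to 0.108 to 0.118 CPM (counts scaled to library size after TMM normalization, the unit used below). Floors cover counting error only. The first principal component of the libraries held 77.8% of the variance. The labels do not say that the libraries came from separate cultures, although the study calls them biological replicates, so the p-values measure the spread between these samples. NPM1, the targeted gene, had 1319 and 1385 CPM in the sgNeg libraries and 1189 and 1132 CPM in the sgNPM1A libraries. Its log2 fold change was -0.22 (SE 0.07, edgeR adjusted p = 0.036), short of the fold threshold, in counts that sum the mutant and wild-type alleles. With limma on quantile-normalized values it was -0.42 (adjusted p = 0.00108), past the threshold. The study's immunoblots, from 3 days on, showed a marked fall of both mtNPM1 and total NPM1 protein, which RNA counts do not measure.

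The labelled cell type was read from marker genes. CD33, a surface marker of myeloid and AML cells, lay between 81.4 and 90.1 CPM in the 4 libraries, and the progenitor markers CD34 and KIT had at most 9 counts in any library. Of 9 markers of myeloid progenitors and leukemic myeloid cells 6 were tested, of which 4 were higher and 0 lower. The summed level of the list was 988 and 1038 CPM with sgNeg and 1406 and 1397 CPM with sgNPM1A. The sum includes SPI1 (mean 473 CPM with sgNeg and 660 with sgNPM1A) and CSF3R (mean 90.1 and 238 CPM). SPI1 is counted again below among transcription factors and CSF3R among neutrophil markers. CD33 and CEBPA (mean 275 and 283 CPM) were not called. Of the markers of B, T or NK, erythroid and megakaryocytic cells, 0 genes were called, and the sum of each of these lists was at most 4.87 CPM in any library. Of the fibroblast or endothelial markers COL1A2 was the gene tested and was lower. Among 9 markers of eosinophils, basophils or mast cells, MS4A2 was higher with 12 counts in each sgNeg library and 24 and 39 in the sgNPM1A libraries. Its call (edgeR adjusted p = 0.0277) rests on few counts and was not followed through other processing. CLC and CPA3 had 0 counts in all libraries, and the summed level of the list was 1.35 to 1.53 CPM with sgNeg and 1.51 to 2.09 CPM with sgNPM1A. In a bulk sample a change in the number of expressing cells and a change in RNA per cell cannot be told apart.

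**Figure D1:**
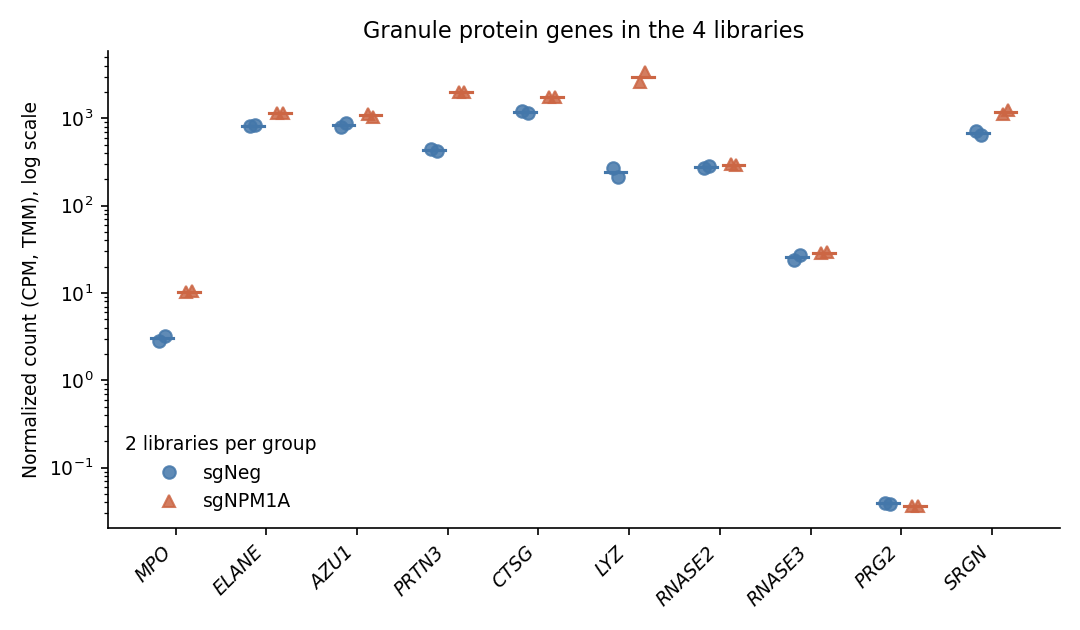
Normalized counts (CPM, log scale) of the 10 granule protein genes in the 2 sgNeg libraries (circles) and the 2 sgNPM1A libraries (triangles), with short lines at the group means. LYZ moved from 215 and 271 to 2643 and 3367 CPM, RNASE2 and RNASE3 stayed close to their sgNeg levels, and PRG2 had 1 count in each library.

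Of the 4 members from the serine protease family, PRTN3 had the largest log2 fold change. PRTN3 encodes proteinase 3, an elastase-like enzyme and the target of autoantibodies in granulomatosis with polyangiitis. It had 449 and 423 CPM in the sgNeg libraries and 2002 and 2030 CPM in the sgNPM1A libraries. The groups were far apart, and the 2 libraries of each group lay close together. Its mean of 436 ± 18.5 CPM with sgNeg rose to 2016 ± 19.8 CPM with sgNPM1A (SD, n = 2 each), a log2 fold change of 2.21 (SE 0.07, 95% interval 2.05 to 2.37, edgeR adjusted p = 2.58e-08). In order of mean CPM, which is not corrected for length, PRTN3 moved from place 301 to place 38 among the tested genes.

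ELANE, neutrophil elastase, is often mutated in severe congenital and cyclic neutropenia. Its level was 816 and 835 CPM with sgNeg and 1162 and 1168 CPM with sgNPM1A. Both sgNPM1A libraries were above both sgNeg libraries, with a log2 fold change of 0.50 (SE 0.07, 95% interval 0.35 to 0.64, edgeR adjusted p = 0.00022). CTSG, cathepsin G, a chymotrypsin-like protease, had 1203 and 1150 CPM with sgNeg and 1750 and 1743 CPM with sgNPM1A. CTSG, the first member by level per length in the sgNeg libraries, rose by 1.48-fold, a log2 fold change of 0.57 (SE 0.07, 95% interval 0.42 to 0.72, edgeR adjusted p = 9.29e-05).

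AZU1 encodes azurocidin, a family member that has lost its protease activity and acts as an antimicrobial and chemotactic protein. Its level was 789 and 879 CPM in the sgNeg libraries and 1133 and 1052 CPM in the sgNPM1A libraries. The groups did not overlap, and the libraries within a group were farther apart than for ELANE. The log2 fold change was 0.39 (SE 0.08, 95% interval 0.22 to 0.56, edgeR adjusted p = 0.00331). This was the smallest change among the called members, and the call was lost with limma, where the log2 fold change was 0.27 (adjusted p = 0.0164). It was also lost without sgNeg replicate 1, at 0.31 (edgeR adjusted p = 0.0112), and without sgNPM1A replicate 1, at 0.33 (edgeR adjusted p = 0.0623).

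LYZ, lysozyme, cleaves bacterial cell walls and is stored in granules of neutrophils and made continuously by monocytes and macrophages. It had 271 and 215 CPM in the sgNeg libraries and 2643 and 3367 CPM in the sgNPM1A libraries. The sgNPM1A libraries differed from each other more than for any other member, and both were well above the sgNeg libraries. The log2 fold change of 3.63 (SE 0.13, 95% interval 3.33 to 3.92, edgeR adjusted p = 3.94e-08) was number 25 in order of size among the rises of all 15718 tested genes. In order of mean CPM LYZ went from place 694 to place 20.

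MPO, the heme enzyme that makes hypochlorous acid and the classical cytochemical marker of myeloid blasts, was scarce. It had 71 and 84 counts in the sgNeg libraries and 283 and 292 counts in the sgNPM1A libraries, which are 2.79, 3.24, 10.2 and 10.5 CPM. All 4 libraries were well over the floor, and the groups were separate. The log2 fold change was 1.77 (SE 0.15, 95% interval 1.45 to 2.10, edgeR adjusted p = 7.52e-06). Even after this rise MPO was at place 8743 of the tested genes in order of mean CPM.

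SRGN carries the glycosaminoglycan chains that hold proteases in the granule. Its level was 723 and 650 CPM with sgNeg and 1138 and 1261 CPM with sgNPM1A, with no overlap. The log2 fold change was 0.81 (SE 0.08, 95% interval 0.63 to 0.98, edgeR adjusted p = 2.6e-05).

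RNASE2 and RNASE3 encode the eosinophil-derived neurotoxin and the eosinophil cationic protein, ribonucleases of the RNase A family. RNASE2 had 273 and 282 CPM with sgNeg and 298 and 290 CPM with sgNPM1A. The sgNPM1A libraries were slightly above, by a log2 fold change of 0.08 (SE 0.06, edgeR adjusted p = 0.373) whose 95% interval reached from -0.06 to 0.22. RNASE3 had 24.2 and 27.4 CPM with sgNeg and 28.8 and 29.2 CPM with sgNPM1A, with a log2 fold change of 0.17 (SE 0.09, 95% interval -0.03 to 0.37, edgeR adjusted p = 0.21). The interval of RNASE2 lies inside the fold threshold, while that of RNASE3 extends past it. PRG2, with 1 count in each of the 4 libraries, was at or under the floor and was not tested.

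**Figure D2:**
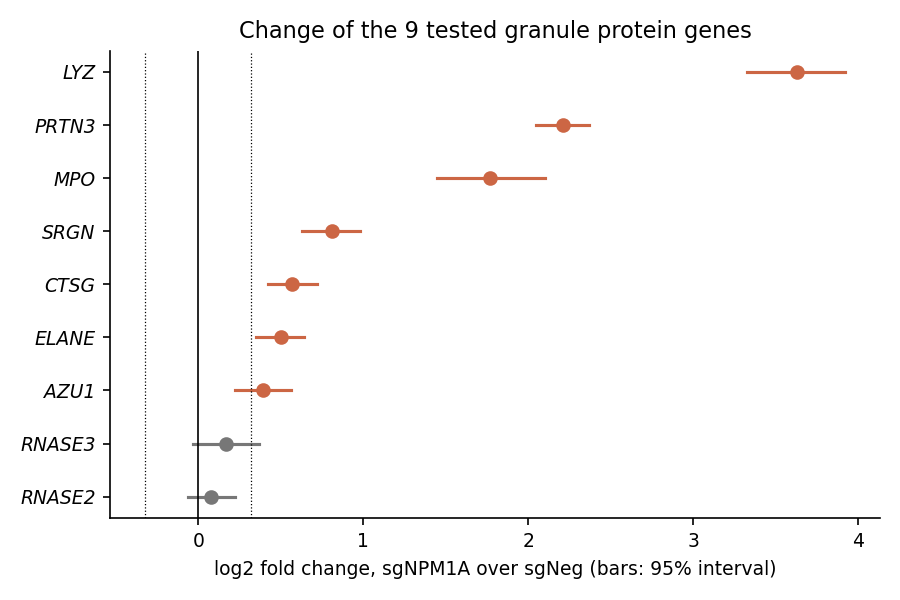
Log2 fold change of sgNPM1A over sgNeg for the 9 tested granule protein genes (points) with 95% intervals from edgeR (bars). Dotted lines mark the fold threshold of 0.32 on the log2 scale, orange genes were called higher, and LYZ, PRTN3 and MPO were the 3 with values of 1.77 or more.

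Both sgNPM1A libraries were above both sgNeg libraries in 9 of the 9 tested members, against 31.4% of all tested genes. The median log2 fold change of the tested members was 0.57 and that of all tested genes was 0.000. The lowest count of a tested member in any library was 71, so that none passed the filter through a single group. Summed over the 10 genes, the members took 0.455% and 0.446% of the normalized counts with sgNeg and 1.02% and 1.1% with sgNPM1A, a ratio of means of 2.34. Without LYZ the ratio was 1.77, and without LYZ and PRTN3 it was 1.45. At a fold change of at least 2, the members called higher were LYZ, PRTN3 and MPO, 3 in all.

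Levels were set against each other only per length, as CPM per kilobase of the canonical transcript. In the sgNeg libraries the order was CTSG (1287 ± 41 CPM per kilobase), AZU1 (920 ± 69.8), ELANE (908 ± 15.1), SRGN (564 ± 42.1), PRTN3 (442 ± 18.7), RNASE2 (385 ± 8.88), LYZ (163 ± 26.3), RNASE3 (35.1 ± 3.1), MPO (0.939 ± 0.099) and PRG2 (0.0272). With the canonical length AZU1 and ELANE were neighbours whose levels did not differ beyond their spread. In the sgNPM1A libraries the order was PRTN3 (2043 ± 20.1 CPM per kilobase), LYZ (2017 ± 344), CTSG (1910 ± 5.3), ELANE (1282 ± 4.59), AZU1 (1204 ± 63.3), SRGN (986 ± 71.3), RNASE2 (408 ± 7.64), RNASE3 (39.5 ± 0.419), MPO (3.21 ± 0.0799) and PRG2 (0.0251), each as mean ± SD with n = 2. PRTN3 and LYZ went from places 5 and 7 to places 1 and 2, and LYZ did not differ from PRTN3 or CTSG beyond the spread of its own libraries. With the longest transcript as the length, LYZ and PRTN3 changed places at the top. AZU1 was then at place 4 with sgNeg and 6 with sgNPM1A, ELANE at place 2 with sgNeg, and SRGN at places 3 and 5. At that length AZU1 (487 ± 36.9 CPM per kilobase) was below ELANE (803 ± 13.4) with sgNeg, beyond their spread. LYZ (2017 ± 344) was likewise above CTSG (1280 ± 3.55) with sgNPM1A, so both comparisons depended on the length used.

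**Figure D3:**
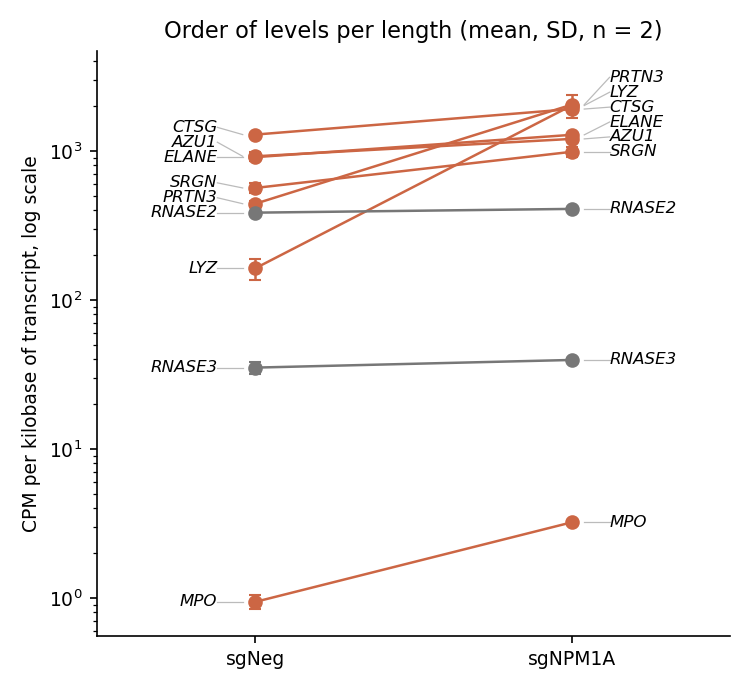
Mean level per length (CPM per kilobase of canonical transcript, log scale) of 9 granule protein genes in the sgNeg and the sgNPM1A libraries, with SD over the 2 libraries as error bars and PRG2 left out. The lines of PRTN3 and LYZ cross those of SRGN, AZU1 and ELANE, while RNASE2 and RNASE3 (grey) run nearly flat.

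Ratios of counts within a library do not depend on the normalization between libraries. PRTN3 had 0.551 and 0.506 counts per ELANE count with sgNeg and 1.72 and 1.74 with sgNPM1A. LYZ had 0.332 and 0.258 counts per ELANE count with sgNeg and 2.27 and 2.88 with sgNPM1A. For AZU1 the same ratio was 0.967 and 1.05 with sgNeg and 0.975 and 0.9 with sgNPM1A. The ratios of PRTN3 and LYZ to ELANE thus separated the groups. Those of CTSG (1.47 and 1.38 with sgNeg, 1.51 and 1.49 with sgNPM1A), SRGN (0.886 and 0.778, 0.98 and 1.08) and MPO (0.00342 and 0.00388, 0.00874 and 0.009) did so too. With 2 libraries per group a small shift such as that of CTSG also separates, so separation alone does not set PRTN3 and LYZ apart. The ratios of AZU1 to ELANE overlapped. The ribonuclease pair also overlapped, with 0.0885 and 0.0971 RNASE3 counts per RNASE2 count in the sgNeg libraries and 0.0966 and 0.101 in the sgNPM1A libraries. RNASE2 had 0.335 and 0.338 counts per ELANE count with sgNeg and 0.256 and 0.248 with sgNPM1A, so that both sgNPM1A libraries were below. An exact two-sided permutation test of 2 libraries against 2 cannot go below p = 0.333, which the ratios of PRTN3, LYZ and RNASE2 to ELANE reached, and gave p = 0.667 for AZU1 to ELANE and for RNASE3 to RNASE2.

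AZU1, PRTN3 and ELANE lie next to each other on chromosome 19 in the RefSeq annotation of GRCh38, in that order along the plus strand. AZU1 spans chr19:827837-832018, PRTN3 chr19:840999-848175 and ELANE chr19:852303-856243, so that 8981 bases separate AZU1 from PRTN3 and 4128 bases separate PRTN3 from ELANE. The middle gene rose 4.62-fold and the genes beside it 1.31-fold and 1.41-fold, and their 95% intervals of 0.22 to 0.56 and 0.35 to 0.64 on the log2 scale did not reach that of PRTN3. CFD, the complement factor D gene 3421 bases beyond ELANE and itself a serine protease of myeloid cells, had 410 and 409 CPM with sgNeg and 386 and 390 CPM with sgNPM1A. Its log2 fold change was -0.08 (edgeR adjusted p = 0.401). Within 100 kb of the cluster 8 other genes were tested, with a median log2 fold change of -0.10, and 0 were higher. The neighbour called lower was KISS1R, a receptor gene with 12 and 18 counts with sgNeg and 3 counts in each sgNPM1A library, whose call was lost with DESeq2 (adjusted p = 0.101) and without sgNeg replicate 2 (edgeR adjusted p = 0.0613).

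**Figure D4:**
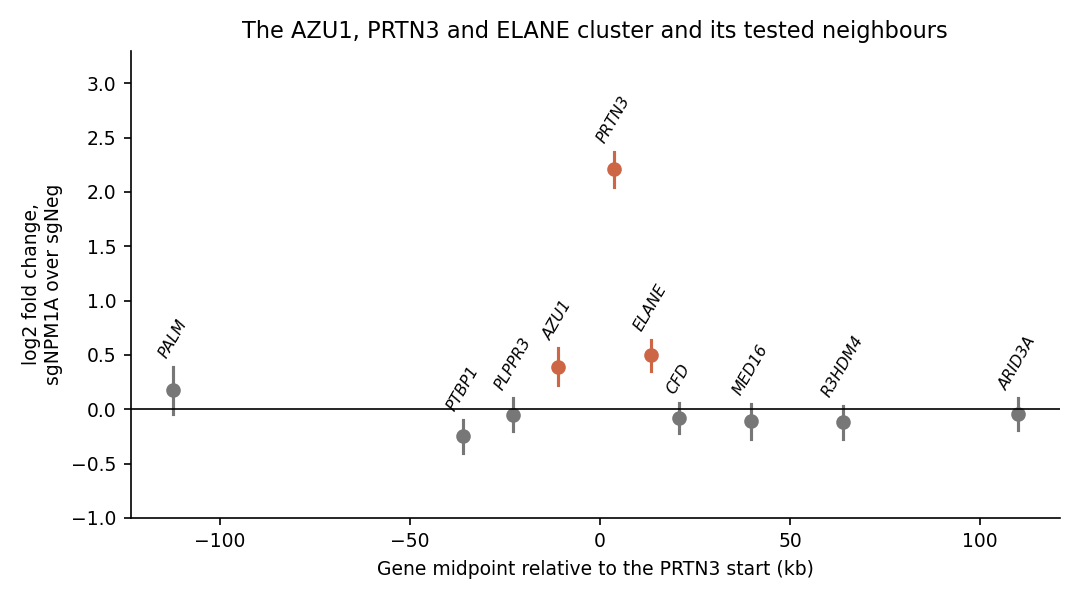
Log2 fold change of sgNPM1A over sgNeg (points, with 95% intervals from edgeR) against the position of each gene's midpoint relative to the PRTN3 start, in kb, for AZU1, PRTN3 and ELANE (orange) and tested genes within 100 kb of them (grey). PRTN3 stands at 2.21 and its next neighbour after ELANE, CFD, at -0.08; KISS1R, with 3 counts in each sgNPM1A library, is left out.

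The sequences before the start sites of AZU1 and PRTN3 are shown because these adjacent genes of the same family rose by such unequal amounts. They are the 250 bases before the RefSeq start on GRCh38.p14, plus strand, chr19:827587-827836 for AZU1 and chr19:840749-840998 for PRTN3. Capitals mark matches, on either strand, to GAGGAA (letters bound by PU.1), TTNNGNAA (C/EBP) and AACNG (MYB), which were chosen with the expression results known.
AZU1: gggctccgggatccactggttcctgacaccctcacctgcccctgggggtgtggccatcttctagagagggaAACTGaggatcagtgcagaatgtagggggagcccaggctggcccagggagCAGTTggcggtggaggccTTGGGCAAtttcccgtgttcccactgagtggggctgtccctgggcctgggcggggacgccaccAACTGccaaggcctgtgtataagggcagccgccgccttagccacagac
PRTN3: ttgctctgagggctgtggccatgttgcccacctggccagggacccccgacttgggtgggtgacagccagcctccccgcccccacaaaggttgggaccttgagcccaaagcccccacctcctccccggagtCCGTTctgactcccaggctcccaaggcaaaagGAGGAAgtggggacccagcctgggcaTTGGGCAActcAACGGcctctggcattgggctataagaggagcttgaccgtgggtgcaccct
Both windows hold the same C/EBP letters, TTGGGCAA, from 111 to 104 bases before the start of AZU1 and from 62 to 55 bases before that of PRTN3. The PU.1 letters occur from 88 to 83 bases before the PRTN3 start and not in these 250 bases of AZU1. Of 35116 RefSeq windows of this length, 23.6% hold GAGGAA, 33.2% TTNNGNAA and 70.6% AACNG, so matches are common. The RUNX letters TGNGGT, in 37.7% of windows, were not in either window. The window of CTSG, on the minus strand at chr14:24576251-24576500, holds GAGGAA from 16 to 11 bases before the start and its reverse complement from 46 to 41. These are matches of letters only, and binding was not measured here. MPO, ELANE, LYZ, PRG2 and SRGN have no entry in the table of start-site windows used.

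RNASE2 and RNASE3 lie 63139 bases apart on chromosome 14, at chr14:20955487-20956436 and chr14:20891385-20892348. Their upstream windows are shown because neither gene was called and the pair has nearly the same sequence there. The windows are chr14:20955237-20955486 and chr14:20891135-20891384, plus strand, with capitals for the same letters.
RNASE2: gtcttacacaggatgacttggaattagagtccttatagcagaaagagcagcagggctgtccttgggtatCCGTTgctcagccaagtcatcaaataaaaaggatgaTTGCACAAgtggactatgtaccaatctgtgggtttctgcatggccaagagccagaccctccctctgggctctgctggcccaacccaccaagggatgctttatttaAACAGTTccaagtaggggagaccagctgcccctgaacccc
RNASE3: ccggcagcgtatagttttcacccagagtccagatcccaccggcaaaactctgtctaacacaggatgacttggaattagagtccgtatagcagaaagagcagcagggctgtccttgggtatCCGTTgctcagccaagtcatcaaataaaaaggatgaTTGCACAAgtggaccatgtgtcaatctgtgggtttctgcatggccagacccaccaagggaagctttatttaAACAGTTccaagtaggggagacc
Over 199 aligned bases they were identical at 192, or 96.5%, against 58.4% to 63.6% for the other 9 pairs among the 5 windows. Each has the C/EBP letters on the minus strand, written TTGCACAA on the strand shown, and neither has GAGGAA. The 2 genes also share some 50-base transcript words, and 18.2% of the words of RNASE2 occur in other genes, mostly RNASE2CP, a gene annotated as lncRNA. RNASE2CP had 28.1 and 32.5 CPM with sgNeg and 24.7 and 23.3 CPM with sgNPM1A and was called lower (log2 fold change -0.34, edgeR adjusted p = 0.0257). The call was lost with DESeq2 (adjusted p = 0.0675) and in 3 of the 4 fits that left out a library, at log2 fold changes of -0.23 without sgNeg replicate 2, -0.38 without sgNPM1A replicate 1 and -0.30 without sgNPM1A replicate 2. How reads that fit both were counted is not given in the sources used here, so values of these genes are uncertain to that extent.

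The remaining members are at chr17:58269855-58280935 (MPO), chr14:24573518-24576250 (CTSG), chr12:69348381-69354234 (LYZ), chr11:57386780-57390650 (PRG2) and chr10:69087603-69104811 (SRGN). MPO, ELANE, PRTN3, CTSG and SRGN shared 0 of their 50-base words with another gene. LYZ shared 36.6%, or 630 words, with 446 genes, and 508 of these words occur in ENSG00000257764, an annotated lncRNA that had 0 counts in every library. AZU1 shared 5.9% of its words with 115 genes and RNASE3 5.26% with 2, so that counts of LYZ, AZU1 and RNASE3 are uncertain to the extent that reads on those words could be split between genes. PRG2 shared 38.6%, all with ENSG00000254979, which had at most 2 counts. Around all members, 28 other genes within 100 kb were tested, of which 4 were higher and 2 lower, with a median log2 fold change of 0.04. Over all tested genes the shares were 10.5% higher and 10.3% lower. Of the neighbours called higher, RTN4RL2 (1.47, edgeR adjusted p = 5.06e-05) and SLC43A1 (0.38, edgeR adjusted p = 0.00316) had the smallest adjusted p, and both lie near PRG2.

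The other genes of the granule program were followed with lists of 144 genes, of which 103 were tested, 23 were higher and 17 lower. Beside these counts and those of each list below, 10.5% of all tested genes were higher and 10.3% lower. Their median log2 fold change was 0.05. Among other azurophil granule proteins, 6 of 11 were tested, 3 were higher and 1 lower, with a median log2 fold change of 0.24. PLAC8, a small cysteine-rich protein of myeloid cells, rose from 397 and 407 to 680 and 685 CPM (log2 fold change 0.76, edgeR adjusted p = 8.24e-06). CTSD, the lysosomal aspartic protease cathepsin D, had a log2 fold change of 0.38 (edgeR adjusted p = 0.00373), and its call was lost without sgNeg replicate 1, at 0.28. PRSS57, a serine protease of neutrophil granules, had 5 and 6 counts with sgNeg and 19 and 17 with sgNPM1A. Its call (edgeR adjusted p = 0.0237) was lost with DESeq2 (adjusted p = 0.251) and with any library left out, at log2 fold changes of 1.46 and 1.70 without sgNeg replicates 1 and 2 and 1.49 and 1.65 without sgNPM1A replicates 1 and 2. CST7, cystatin F, which inhibits the cathepsin that activates the serine proteases, fell from 32.7 and 34.8 to 11.4 and 10.2 CPM (log2 fold change -1.64, edgeR adjusted p = 7.62e-07). The defensin genes DEFA1, DEFA1B, DEFA3 and DEFA4 had 0 counts in every library, and BPI had 0 with sgNeg and 6 and 7 counts with sgNPM1A. DEFA1, DEFA1B and DEFA3 are near-identical copies, and how reads that fit several genes were counted is not given. The 0 counts of these copies therefore need not mean that they were not expressed.

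Of the 17 specific and gelatinase granule proteins, 9 were tested, 3 were higher and 3 lower, with a median log2 fold change of 0.04. CHI3L1, a chitinase-like lectin, rose from 44.8 and 46.2 to 236 and 272 CPM (log2 fold change 2.48, edgeR adjusted p = 2.58e-08). FCN1, ficolin 1, rose by 1.71 on the log2 scale (edgeR adjusted p = 2.68e-05). The metalloproteases MMP9 and MMP8 were lower, MMP9 by going from 111 and 115 to 47.6 and 61.1 CPM (log2 fold change -1.05, edgeR adjusted p = 2.41e-05) and MMP8 with a log2 fold change of -1.53 (edgeR adjusted p = 0.00107). The defining specific granule genes LTF (lactoferrin), LCN2 and CAMP had at most 5 counts in any library. Among eosinophil, basophil and mast cell granule proteins other than the members, 2 of 10 were tested, with a median log2 fold change of 0.63. This is the midpoint of 2 genes with opposite signs, MS4A3 and HDC, and does not describe the list, of which 8 genes were not tested. HDC had 11 counts in each sgNeg library and 9 and 7 in the sgNPM1A libraries (log2 fold change -0.57, edgeR adjusted p = 0.407). MS4A3, a membrane protein of granulocyte precursors, was the gene called and rose from 118 and 112 to 393 and 418 CPM (log2 fold change 1.82, edgeR adjusted p = 3.94e-08).

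Granule protease inhibitors were called higher in 5 of 11 tested genes and lower in 1, with a median log2 fold change of 0.27. SERPINB10, a serpin of hematopoietic cells, rose from 1.77 and 1 to 25 and 26.7 CPM (log2 fold change 4.22, edgeR adjusted p = 7.32e-08), and SERPINB8 from 83.6 and 77.9 to 217 and 233 CPM (1.48, adjusted p = 1.55e-07). SERPINB9, the granzyme B inhibitor, fell from 33.1 and 29.7 to 13.7 and 11.6 CPM (log2 fold change -1.31, edgeR adjusted p = 7.57e-06). SERPINB1, which inhibits elastase, proteinase 3 and cathepsin G, had a log2 fold change of 0.14 (edgeR adjusted p = 0.153). SLPI, another inhibitor on this list, rose from 1.22 and 1.7 to 12.7 and 14.8 CPM (log2 fold change 3.23, edgeR adjusted p = 4.34e-07). Of the 12 genes for zymogen processing and MPO maturation, all tested, UROD of the heme pathway was higher (0.39, adjusted p = 0.00243) and 0 were lower, with a median of 0.08. CTSC, which activates the serine protease zymogens, had a log2 fold change of 0.17 (edgeR adjusted p = 0.0871). SERPINB1, SLPI and CTSC are named for their roles and lie outside the rule for named genes.

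Glycosaminoglycan chain synthesis genes, which build the chains that serglycin carries, were lower in 5 and higher in 1 of 21 tested genes, with a median log2 fold change of -0.10. CHST11, a chondroitin sulfotransferase, fell from 287 and 269 to 142 and 137 CPM (log2 fold change -0.99, edgeR adjusted p = 1.49e-06). CHSY3, a chondroitin synthase, had a log2 fold change of -1.09 (edgeR adjusted p = 0.000914) and CHST12, another sulfotransferase, of 0.49 (edgeR adjusted p = 0.000864). Of 24 tested genes of granule biogenesis and exocytosis, 4 were higher and 3 lower, with a median log2 fold change of 0.01 that was -0.03 with library size only. SYTL1, a Rab27 effector, had 5 and 1 counts with sgNeg and 125 and 106 counts with sgNPM1A (edgeR adjusted p = 4.05e-06), and HPS4, of a lysosome-related organelle complex, rose by 0.71 on the log2 scale (edgeR adjusted p = 6.14e-05). RAB27B, a GTPase of granule docking, fell from 4.01 and 3.78 to 0.466 and 0.36 CPM (log2 fold change -3.22, edgeR adjusted p = 5.56e-06), and SYTL3, another Rab27 effector, by 1.75 on the log2 scale (edgeR adjusted p = 0.00312).

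**Figure D5:**
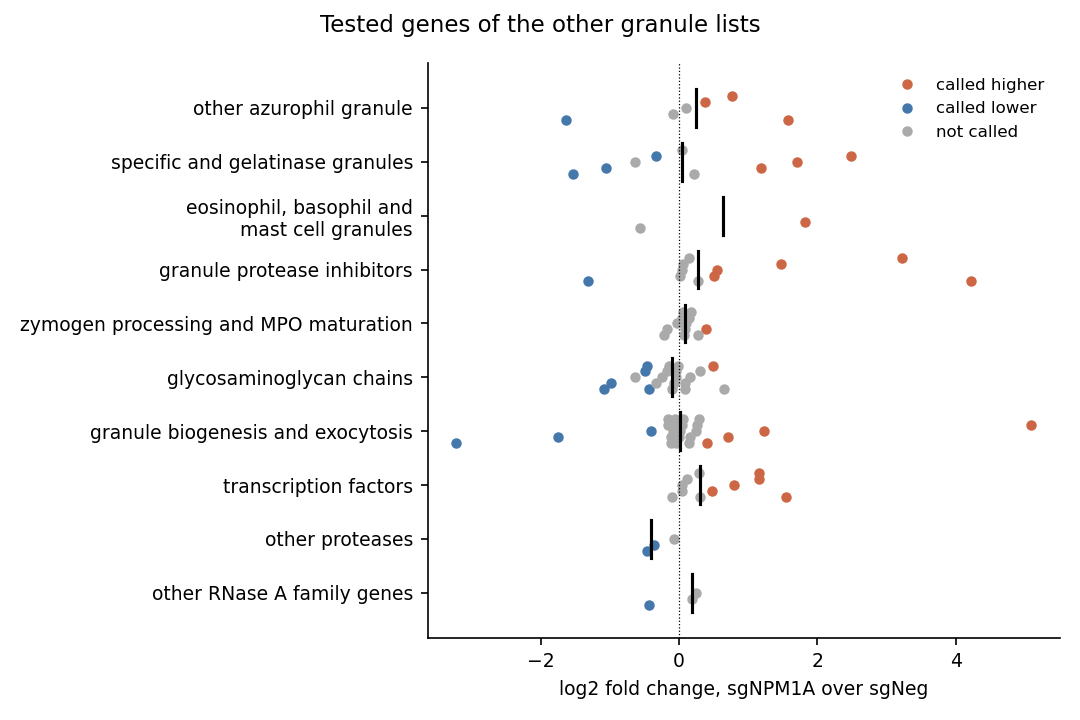
Log2 fold change of sgNPM1A over sgNeg for the tested genes of the other granule lists, each point a gene, coloured by its call (edgeR), with a vertical bar at the median of each list. Granule protease inhibitors and transcription factors hold 5 called higher each, glycosaminoglycan genes 5 called lower, and GZMA, with 3 and 1 counts in the sgNPM1A libraries, is not drawn but counts in its median.

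Among 11 tested transcription factors known to act on granule genes, 5 were higher and 0 lower, with a median log2 fold change of 0.30. CEBPB rose from 64.6 and 78.9 to 163 and 157 CPM (log2 fold change 1.16, edgeR adjusted p = 4.36e-06) and IRF8 from 660 and 614 to 1090 and 1124 CPM (0.80, adjusted p = 1.08e-05). SPI1, which encodes PU.1, rose from 452 and 495 to 676 and 643 CPM (log2 fold change 0.48, edgeR adjusted p = 0.000552). GATA2, a factor of stem, mast and basophil cells, rose by 1.15 on the log2 scale (edgeR adjusted p = 0.00104). CEBPE, the factor of late granule genes, had 6 and 4 counts with sgNeg and 15 and 17 with sgNPM1A. Its call (edgeR adjusted p = 0.0354) was lost with DESeq2 (adjusted p = 0.307) and with any library left out, at log2 fold changes of 1.87 and 1.27 without sgNeg replicates 1 and 2 and 1.63 and 1.44 without sgNPM1A replicates 1 and 2. CEBPA, at 270 to 285 CPM in the 4 libraries, had a log2 fold change of 0.04 (edgeR adjusted p = 0.699). MYB and RUNX1 had log2 fold changes of 0.30 (edgeR adjusted p = 0.0118) and 0.29 (edgeR adjusted p = 0.0179), short of the fold threshold. The study reported less c-Myb protein after mtNPM1 KO, a measure that RNA counts do not give. On a later day than this RNA, it also reported less H3K27Ac and H3K4Me3, marks of active chromatin, at MYB. It further reported lower enhancer activity at SPI1 and the loss of IRF8 and SPI1 from a modelled regulatory circuit, but more PU.1 protein. How those chromatin results relate to the RNA of MYB, SPI1 and IRF8 given here was not tested.

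Other proteases and ribonucleases of the members' families were followed as well. Among 4 tested genes of the protease list (median log2 fold change -0.41), which besides serine proteases holds the cysteine cathepsins CTSS and CTSB, 3 were lower and 0 higher. GZMA, a granzyme of cytotoxic lymphocytes, had 104 and 131 counts with sgNeg and 3 and 1 with sgNPM1A (edgeR adjusted p = 1.29e-06). CTSB fell from 323 and 322 to 233 and 237 CPM (log2 fold change -0.46, edgeR adjusted p = 0.000277). CTSS had a log2 fold change of -0.36 (edgeR adjusted p = 0.00472) and lost its call without sgNPM1A replicate 1, at -0.35 (adjusted p = 0.0598). Of 3 tested RNase A family genes other than RNASE2 and RNASE3 (median log2 fold change 0.19), RNASE6 was lower, from 68.3 and 76.8 to 58.3 and 49.6 CPM (log2 fold change -0.43, edgeR adjusted p = 0.00642), and lost its call without sgNPM1A replicate 2, at -0.32 (adjusted p = 0.0962).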

How the data were processed

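RNA was sequenced from 4 libraries of OCI-AML3 cells. According to the study and the submitters' processing notes, the authors mapped read pairs to hg38 with STAR and Samtools, and the deposited values are raw counts, a whole number for each Ensembl gene and library. The counting program, its strand setting and the annotation release are not given in the sources used here, so reads of overlapping or antisense genes may be mixed. The study added ERCC spike-ins to the libraries. Their counts are not among the rows used here, which include 0 with ERCC names, and normalization did not draw on them. The labels give alpha-MEM as medium and the study RPMI.

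Here counts were normalized by TMM and tested with edgeR 4.0.16 (R 4.3.3), filterByExpr by group with a minimum count of 10, robust quasi-likelihood F tests, two-sided, adjusted over 15718 genes. This filter also keeps genes with enough counts in only the higher group, for example SYTL1, GZMA, PRSS57, CEBPE and KISS1R. Such genes count in the calls and medians given, and their fold changes rest on few counts in the lower group. DESeq2 1.42.0 and limma 3.58.1 were alternatives, with other normalizations, filters, thresholds, a replicate block, protein-coding genes only and each library left out in turn. The script was tested on simulated data. Symbols were matched by Ensembl identifier. Positions and start-site windows are those of RefSeq on GRCh38.p14, and transcript lengths and 50-base words those of GENCODE transcripts on GRCh37, from which no coordinates were taken. Log2 fold changes are edgeR's, with a prior count, and intervals are at 95%.

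The members and lists were chosen with earlier results of these data known. All members and NPM1 were to be named, and of each list and of the genes within 100 kb the 2 called higher and the 2 called lower with the smallest adjusted p, or all where a list held 5 or fewer calls. Marker genes of other cell types, CFD, RNASE2CP and genes given for their role were named outside that rule. The values of 1 marker gene are not reported here.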

Additional observations from a re-analysis of the deposited data

How the results depend on the processing

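Over 14 alternatives each, the log2 fold changes were 1.67 to 1.89 for MPO, 0.36 to 0.52 for ELANE, 2.11 to 2.25 for PRTN3, 0.36 to 0.60 for CTSG, 3.44 to 3.80 for LYZ and 0.69 to 0.88 for SRGN, and these 6 calls held in all of them. AZU1 was weaker with limma-trend on quantile-normalized values, at 0.27, and its leave-one-out values were 0.31 to 0.47. RNASE2 (0.04 to 0.11) and RNASE3 (0.08 to 0.27, smallest adjusted p 0.0499) were called in none. NPM1 passed the threshold with limma-trend, at -0.42. A fold change of at least 2 left 3 members higher and, over all genes, 498 higher and 502 lower. The median of the other lists was 0.01 with library size only and 0.03 to 0.06 with a library left out, and that of granule biogenesis and exocytosis genes alone changed sign to -0.03 with library size only. CEBPA was -0.00 with library size only and CD33 -0.00 to 0.13 with a library left out. The labels number the libraries of each group 1 and 2, nothing else links them, and the deviations of same-numbered libraries had a correlation of -0.13 across genes. The replicate block gave 7 members called higher, 1637 genes higher and 1604 lower over all genes. The crossed replicate block, chosen after the data were seen, gave 7 members, 1955 genes higher and 1918 lower. DESeq2 gave 1191 genes higher and 1144 lower. With 2 libraries per group the fits without a library assume that the lone library varies like the others, and depth limits PRG2 and the genes with a few counts.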

Other observations

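Markers of mature myeloid cells moved in both directions, and their part in the changes of the granule protein genes was not tested. Of 7 markers of mature neutrophils 4 were tested and 4 were higher. S100A8 and S100A9, the calprotectin subunits, went from 26.3 and 32.3 to 164 and 183 CPM and from 61.7 and 73.8 to 410 and 482 CPM, with log2 fold changes of 2.57 (edgeR adjusted p = 4.8e-08) and 2.72 (edgeR adjusted p = 3.94e-08). CXCR2, a chemokine receptor, rose by 1.66 and CSF3R, the G-CSF receptor, by 1.40 on the log2 scale, while FCGR3B, MME and CEACAM8 had 0 counts in every library. The summed level of the 7 genes was 186 and 208 CPM with sgNeg and 837 and 940 CPM with sgNPM1A.

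Markers of monocytes or macrophages were called in both directions. ITGAM, which encodes CD11b, went from 19 and 21 to 98 and 121 counts, and CSF1R, the M-CSF receptor, rose by 1.22 on the log2 scale (edgeR adjusted p = 2.35e-06). CD163, a scavenger receptor of macrophages, fell from 27.5 and 27.9 to 3.48 and 3.46 CPM (log2 fold change -3.00, edgeR adjusted p = 4.51e-08). CD14 had a log2 fold change of 0.34 (edgeR adjusted p = 0.0557). It passed the threshold in 5 of 14 alternatives. With a library left out it was 0.18 and 0.52 without sgNeg replicates 1 and 2, and 0.43 and 0.24 without sgNPM1A replicates 1 and 2, so that its size depended on single libraries.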
